A study of Bos taurus with 6 samples.

Results

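bta-miR-221 and bta-miR-222 are the 2 members of one miRNA family, and they were found by name among the 765 miRNAs that the deposited table lists for primary bovine myoblasts. Each has 1 row without an arm suffix, and the table lists no row for an opposite arm of either. The cells were primary myoblasts from fetal beef longissimus dorsi muscle. In 3 cultures they received 20 μM resveratrol (RSV group) and in 3 cultures the solvent DMSO alone (DMSO group), and the description of the experiment gives 4 days in differentiation medium for them. All 6 cultures were therefore in differentiation medium, and no proliferating culture was available for comparison. Reads were divided by a size factor, which scales for sequencing depth, and the table gives for each group the average of its 3 libraries without values of single samples.

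MiRNAs are short RNAs that guide a silencing complex to mRNAs, mostly through their seed near the 5′ end. miR-221 and miR-222 share their seed and are made from neighbouring genes. They are known for repressing CDKN1B, the cyclin-dependent kinase inhibitor p27, and CDKN1C, its relative p57, and thereby for favouring cell cycle entry. In myoblasts of other species their levels are known to fall as cells leave the cell cycle and differentiate. In the RefSeq annotation of the cattle assembly ARS-UCD2.0, MIR222 and MIR221 lie next to each other on chromosome X with 0 other genes between them, and 1 annotated gene, the lncRNA LOC132344329, spans both. The table of read counts was made on another assembly, UMD_3.1.1, so no coordinates are given.

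With the authors' size factors, neither miRNA differed between the groups by more than a few percent. bta-miR-221 had a mean of 23070.9 normalized reads in the RSV group and 23543.7 in the DMSO group, which is a log2 ratio of −0.03, or −2.01%. bta-miR-222 had a mean of 6722.1 normalized reads in the RSV group and 6563.8 in the DMSO group, which is a log2 ratio of 0.03, or 2.41%. Both are the authors' means, and the spread of either miRNA between libraries could not be read from them, so no test between the groups was made. The sign of bta-miR-221 depended on the scaling. Centring the log2 ratios on their median over miRNAs with an average mean of at least 100 kept it, at −0.03. When each mean was instead taken as a share of all miRNA reads, the log2 ratio was 0.12 for bta-miR-221 and 0.18 for bta-miR-222, higher in the RSV group for both. That scaling moved every miRNA by the same amount. The miRNA means summed to 6637955.1 in the RSV group and to 7340618.4 in the DMSO group, a log2 ratio of −0.15. Some pairs of names, such as bta-miR-152 and bta-miR-2957, have nearly the same means in both groups. Reads counted under several names would enter these sums repeatedly.

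**Figure D1:**
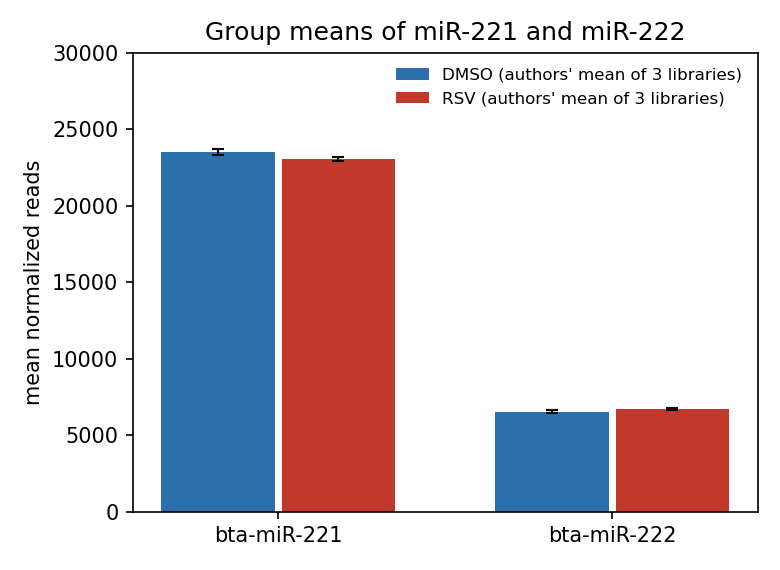
Mean normalized reads of bta-miR-221 and bta-miR-222 (y axis) in the DMSO and RSV groups; bars are the authors' means of 3 libraries and error bars the 95% interval for counting error alone, since the spread between libraries is unknown. The bars of the groups lie close together, at 23543.7 and 23070.9 for bta-miR-221 and at 6563.8 and 6722.1 for bta-miR-222.

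Counting error was small at these levels. It was computed from the size factors recovered for the 6 miRNA libraries, which ran from 0.935 to 1.54 under RSV and from 0.729 to 0.922 under DMSO. The 95% interval of the log2 ratio for counting error alone ran from −0.04 to −0.01 for bta-miR-221 and from 0.0056 to 0.063 for bta-miR-222. These intervals leave out differences between cultures and library preparations, so an interval that misses 0 does not show a difference between the treatments. A sense of that spread came from the 511 miRNAs with both group means below 100, for which the whole reads of each library could be recovered for all 511. Among those with a group mean from 30 to below 100, the median coefficient of variation between the 3 libraries was 15.2% in the RSV group (60 miRNAs) and 12.6% in the DMSO group (62 miRNAs). The coefficient expected from counting error alone had a median of 13.3% and 16.1% for the same miRNAs. A coefficient taken from 3 libraries tends to fall below its true value. These medians therefore do not show whether the typical miRNA varied beyond counting error. Averaged over these miRNAs, in which single miRNAs of wide spread weigh more, the variation beyond counting error came to 20.4% and 13.1%. These values come from much less abundant miRNAs, and it was not tested whether miR-221 and miR-222 varied as much.

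Among all 391 miRNAs with an average of both means of at least 10 normalized reads, the ratios of the family members lay near the middle. The log2 ratio of bta-miR-221 was above that of 173 miRNAs (44.2%), and the log2 ratio of bta-miR-222 was above that of 221 (56.5%). The median over the 391 miRNAs was 0.0049, with quartiles of −0.17 and 0.20. Of them, 350 (89.5%) had a ratio farther from 0 than bta-miR-221, and 341 (87.2%) one farther from 0 than bta-miR-222. As shares of all miRNA reads these numbers were 279 (71.4%) and 205 (52.4%), so the closeness to 0 depended on the scaling, while the place among the miRNAs did not. With a fold of 1.2 as the limit, 15.9% of the 391 miRNAs were lower and 18.2% higher in the RSV group (34% in all, 62 lower and 71 higher), and 0 of the 2 family members passed it in either direction. As shares of all miRNA reads, 26 miRNAs were lower and 128 higher by this fold. A fold of 1.2 is a description of the means and no test.

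Of 146 miRNAs with an average mean of at least 1000, 127 (87.0%) had a ratio farther from 0 than bta-miR-221 and 125 (85.6%) one farther than bta-miR-222, against 94 (64.4%) and 61 (41.8%) as shares of all miRNA reads. The 70 miRNAs at or above the average level of bta-miR-222, the member itself included, had a median log2 ratio of −0.10, and 50 of them (71.4%) had the lower mean in the RSV group, against 28 of the 70 when means were taken as shares of all miRNA reads. Over the 391 miRNAs 189 (48.3%) had the lower mean with the authors' size factors and 110 as shares of all miRNA reads. bta-miR-221, with −0.03, and bta-miR-222, with 0.03, thus had ratios above the median of these 70 miRNAs. Over the 146 miRNAs the median was −0.02, slightly above the ratio of bta-miR-221. In all these sets, names with nearly the same means, such as bta-miR-152 and bta-miR-2957, were counted separately.

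**Figure D2:**
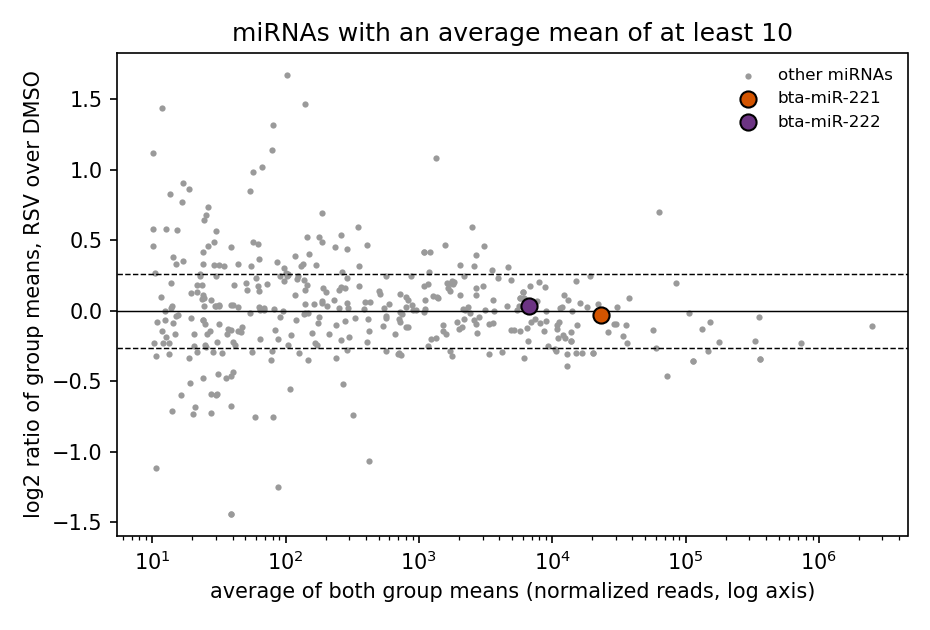
Log2 ratio of the group means, RSV over DMSO (y axis), against the average of both means in normalized reads (x axis, log scale) for 391 miRNAs; the dashed lines mark a fold of 1.2. With the authors' size factors both coloured points, bta-miR-221 at −0.03 and bta-miR-222 at 0.03, sit next to the line at 0.

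bta-miR-221 was the more abundant of both in either group. Its mean was 3.43 times that of bta-miR-222 in the RSV group and 3.59 times in the DMSO group. The log2 ratios of the members differed by −0.06 (bta-miR-221 minus bta-miR-222), with a 95% interval for counting error alone from −0.10 to −0.03. This difference does not depend on the scaling between groups, and it was not tested against the spread between libraries. Together the family took 0.449% of all miRNA reads in the RSV group and 0.410% in the DMSO group. Reads per miRNA also depend on how well a sequence is ligated and amplified, so the ratio between the members describes reads and may differ from the ratio of molecules.

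In the order of all miRNAs by mean, bta-miR-221 held rank 28 in both groups, and bta-miR-222 rank 68 in the RSV group and rank 71 in the DMSO group. The neighbours of bta-miR-222 in that order were bta-miR-128 and bta-miR-17-5p in both groups. Under RSV their means were 6805.0 and 6709.2, under DMSO 6511.9 and 6702.9, and all 4 differences from bta-miR-222 were within the 95% counting error. bta-miR-221 stood between bta-miR-379, with 23753.3, and bta-miR-411a, with 22334.3, in the RSV group. In the DMSO group it stood between bta-miR-379, with 23944.5, and bta-miR-152, with 22305.3. These 4 differences were larger than the 95% counting error, and whether they exceed the spread between libraries is unknown. No other miRNA had means within 1% of those of either member in both groups.

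The miRNAs most like each member were taken by their distance over the 2 values log2 RSV mean and log2 DMSO mean. For bta-miR-221 the nearest 5 were bta-miR-379 (distance 0.049), bta-miR-411a (0.13), bta-miR-30d (0.24), bta-miR-152 (0.36) and bta-miR-2957 (0.36). Their log2 ratios between groups were −0.01, 0.04, −0.15, −0.30 and −0.30, so the last 3 were close in level more than in ratio. bta-miR-152 and bta-miR-2957 had nearly the same means, 18142.8 and 18142.4 under RSV and 22305.3 for both under DMSO. They may therefore hold the same reads. For bta-miR-222 the nearest 5 were bta-miR-128 (distance 0.021), bta-miR-17-5p (0.030), bta-miR-493 (0.11), bta-miR-155 (0.11) and bta-miR-181a (0.13). Their log2 ratios were 0.06, 0.0014, 0.17, −0.08 and −0.13. A likeness over 2 group means describes level and ratio only.

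Muscle miRNAs were read in both groups. Of 8 muscle miRNAs searched for by name, 7 were listed, led by bta-miR-206 with means of 127629.5 in the RSV group and 139463.9 in the DMSO group, and by bta-miR-1 with 28912.3 and 30883.1. bta-miR-221 thus lay below bta-miR-1 in level, and bta-miR-222 lay between bta-miR-133a, with 7817.3 and 7452.6, and bta-miR-133b, with 5687.0 and 5550.3. Of the 7 muscle miRNAs 4 had the lower and 3 the higher mean in the RSV group, with a median log2 ratio of −0.04, whereas all 7 were higher as shares of all miRNA reads. Only bta-miR-499, a miRNA made within a slow myosin gene, passed a fold of 1.2 among the 7, with means of 114.5 and 46.1. The 7 muscle miRNAs summed to 170749.3 in the RSV group and 184000.8 in the DMSO group. Markers of other cell types were listed as well. Those of smooth muscle and fibroblasts (4 of 4 names) had larger sums, 843118.8 in the RSV group and 970536.7 in the DMSO group. Those of blood (4 of 5 names) summed to 266.1 and 126.6, with miR-223 at 0 in the RSV group, and those of epithelium (5 of 5 names) to 104.5 and 109.1. Most of the blood sum was bta-miR-451, with 203.7 and 73.8. Of the 5 rows for blood, 3 were higher and 2 lower in the RSV group. Endothelial miR-126 summed to 304.9 and 274.7 over both arms, neuronal miRNAs (2 of 3 names) to 1173.9 and 1156.2, and liver miR-122 had 88.4 and 43.6. Most of the neuronal sum was bta-miR-9-5p, with 1108.7 and 1097.5, whereas bta-miR-124a had only 0.36 and 3.44. How far other cells contributed to the reads of miR-221 and miR-222 was not tested. In such bulk samples, fewer cells of a type and less RNA per cell cannot be told apart.

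The list of mRNAs known as targets of miR-221 or miR-222 in other systems held 22 genes. The table names mRNAs by Ensembl identifier, and 7 of the 22 could be paired with an identifier. The pairing came from the study's supplementary list of differentially expressed mRNAs, so a gene could be named only if the authors had called it changed. The values of these genes are therefore a description with no test, and they say nothing on the 15 genes without an identifier, CDKN1C among them. Whole reads of single libraries were recovered for 6 of the 7, and TIMP2, an inhibitor of matrix metalloproteinases, was not recovered. The recovered libraries carry no replicate number. Their mRNA size factors ran from 1.05 to 1.09 under RSV and from 0.886 to 0.964 under DMSO. Reads of every RSV library were thus divided by a larger factor than those of any DMSO library.

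CDKN1B (ENSBTAG00000018254), the gene of p27, had 950.4, 910.9 and 905.0 normalized reads under RSV, against 1203.7, 1240.1 and 1202.7 under DMSO. Every RSV library lay below every DMSO library, with means of 922.1 ± 24.7 and 1215.5 ± 21.3 (SD, n = 3) and a log2 ratio of −0.40. Among 12949 mRNAs with recovered reads and an average mean of at least 10, 23.4% had all RSV libraries below all DMSO libraries, 27.6% had them all above, so that the groups did not overlap in 51%. Such a separation was thus common among mRNAs in these libraries. Over mRNAs the median log2 ratio was 0.03, with quartiles of −0.21 and 0.30.

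BMF (ENSBTAG00000012180), which encodes a cell death activator of the BCL2 family, had 137.0, 108.0 and 161.3 normalized reads under RSV, against 204.4, 219.9 and 208.7 under DMSO. All RSV libraries were below all DMSO libraries, at a log2 ratio of −0.64. The RSV libraries of BMF spread more than the DMSO libraries, with an SD of 26.7 against 7.98 (n = 3 each).

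The other 4 genes had the higher reads in the RSV group. ICAM1 (ENSBTAG00000010303), a cell adhesion molecule for leukocytes, had 1304.3, 1168.4 and 1529.2 normalized reads under RSV, against 207.5, 231.4 and 233.5 under DMSO, a log2 ratio of 2.57. MDM2 (ENSBTAG00000010422), the ubiquitin ligase that limits p53 and is itself a p53 target, had 3930.4, 4230.7 and 2792.8 under RSV, against 1495.3, 1376.7 and 1476.8 under DMSO, a log2 ratio of 1.33. The lowest RSV library of MDM2 still lay well above the highest DMSO library.

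DDIT4 (ENSBTAG00000000163), a stress-induced inhibitor of mTORC1 signalling, had 3977.3, 4053.5 and 4083.0 normalized reads under RSV, against 2575.5, 2624.1 and 2646.8 under DMSO. Its log2 ratio was 0.63, and libraries of a group lay close together. SNTB1 (ENSBTAG00000044126), which encodes β1-syntrophin of the dystrophin complex, had 584.6, 535.3 and 696.3 normalized reads under RSV, against 429.6, 406.4 and 437.8 under DMSO, a log2 ratio of 0.51. For the 6 genes together the RSV group was lower for CDKN1B and BMF and higher for ICAM1, MDM2, DDIT4 and SNTB1. The means of miR-221 and miR-222 differed between groups by 2.01% and 2.41% with the authors' size factors. As shares of all miRNA reads, their log2 ratios were 0.12 and 0.18.

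**Figure D3:**
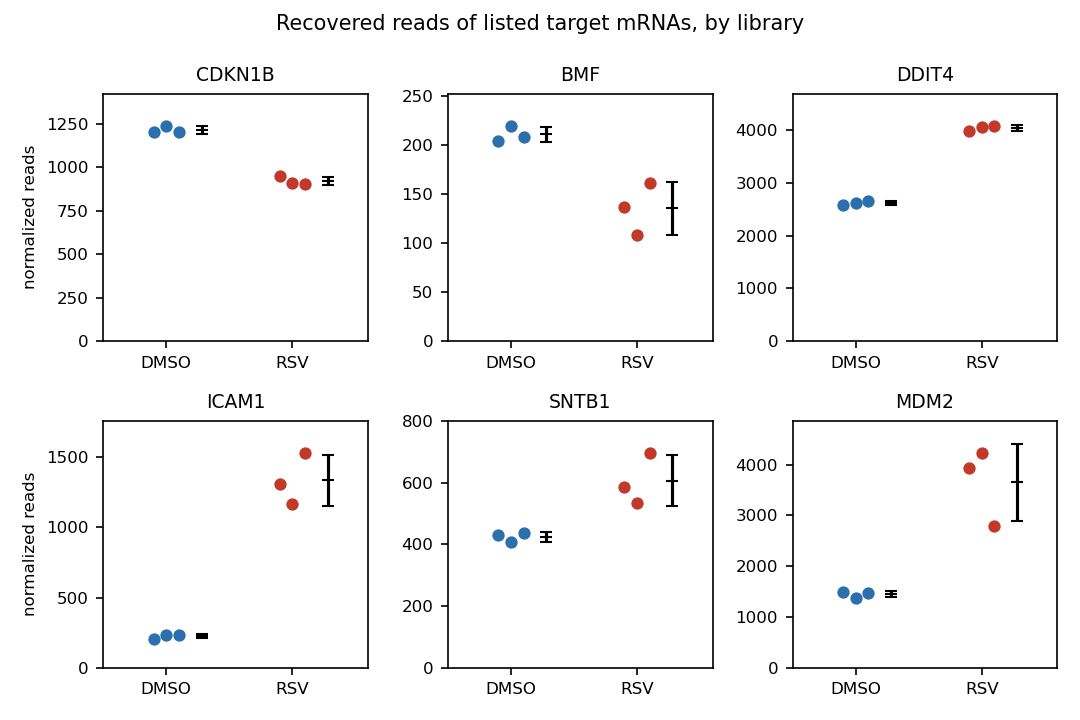
Normalized reads (y axis, from 0) of 6 listed target mRNAs in single libraries of the DMSO and RSV groups; points are libraries recovered from the group means and black marks are the mean ± SD (n = 3). The groups do not overlap in any panel, with RSV below DMSO for CDKN1B and BMF and above it for the other 4. Among 12949 mRNAs with recovered reads the groups did not overlap in 51%. These 6 genes could be named only because the authors had called them changed.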

How the data were processed

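Total RNA of 6 cultures (3 RSV, 3 DMSO) was sequenced for mRNA and miRNA. The authors filtered the reads, mapped miRNA tags to UMD_3.1.1 (bosTau8) with Bowtie 0.12.9 and named them by miRBase. The mRNA aligner is not given in the sources used here. The deposited values are group means of read counts divided by size factors, for 26332 mRNAs and 765 miRNAs. The deposited columns of log2 fold change, p-value, adjusted p-value and call hold the authors' own comparison and were not used. Most mRNA means of at least 1 have lost their decimal point.

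Samples were grouped by title. Size factors were recovered from the smallest means, in which 1 read in 1 library gives a fixed step. A mean was then written as whole reads over these factors, accepted where 1 combination was found and fewer than 0.02 were expected by chance, which also placed the decimal point. For mRNAs, means up to 2000 were searched (6000 for listed targets), and 18383 of 20459 mRNAs with reads (89.9%) were recovered. Only the search for whole reads was tried on simulated means, with the RSV size factors and the decimal point given and mRNA means up to 2000. Estimating the factors, placing the decimal point, the DMSO factors and larger target means were not part of that trial. Means of miR-221 and miR-222 are too large for recovery of whole reads. The sum of miRNA means per group is given in the results, and the depth of single miRNA libraries is not given in the sources used here. Counting intervals (95%) assume Poisson reads.

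The members, the target list and the marker lists were chosen with earlier results of these data known. Named miRNAs are the members, the 5 nearest to each, and listed muscle miRNAs (as counts) and cell type markers. The paper's methods state independent experiments within each group. Alternatives were 2 other scalings, a pseudocount of 1, other minimum means and each recovered library left out. Mature sequences and the miRNAs that share the seed were not analysed here. Python 3.11.15, numpy 2.4.6, pandas 2.3.3, numba 0.67.0 and matplotlib 3.10.9 were used.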

Additional observations from a re-analysis of the deposited data

How the results depend on the processing

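As a share of all miRNA reads, the log2 ratio was 0.12 for bta-miR-221, which turned its sign, and 0.18 for bta-miR-222, since that scaling adds the same amount to every miRNA. With this scaling 26 miRNAs were 1.2-fold or more lower and 128 higher in the RSV group, against 62 lower and 71 higher with the authors' size factors, so the share of higher ones went from 53.4% to 83.1%. Without a minimum mean the counts were 171 lower and 179 higher, with a minimum of 100 they were 32 and 33, and with a minimum of 1000 they were 20 and 14, because other numbers of miRNAs were counted. Centring on the median and a pseudocount of 1 kept the signs of both members and moved these counts by less than 1.5 times. Leaving out each recovered library in turn gave log2 ratios from −0.42 to −0.38 for CDKN1B, −0.78 to −0.50 for BMF, 0.62 to 0.64 for DDIT4, 2.46 to 2.66 for ICAM1, 0.40 to 0.59 for SNTB1 and 1.21 to 1.49 for MDM2. For miR-221 and miR-222 no library could be left out, because only group means are given. No paired analysis was possible because the table holds no column for a single sample and the recovered libraries carry no replicate number.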
